A study of Mus musculus with 12 samples.

Results

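Genes that move iron and heme through the cell were followed in mouse leukemic cells that carry MLL-AF9 (MA9), an oncogene of acute leukemia in which the histone methyltransferase MLL is joined to AF9. The list held 10 genes, taken by symbol: the iron importers *Tfrc*, *Slc11a2* and *Slc11a1*, the ferritin subunits *Fth1* and *Ftl1*, the iron exporter *Slc40a1*, the heme enzymes *Hmox1* and *Alas1*, and the iron sensors *Ireb2* and *Aco1*. Of these, 9 had a row among the 25263 symbols of the expression table, and all 9 had a mean of at least 1 FPKM (fragments per kilobase, relative to all fragments of the library) and so were among the 13169 symbols tested. *Ftl1*, the ferritin light chain, had no row under its symbol and was not analysed here.

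Most cells take up iron bound to transferrin, which the transferrin receptor (*Tfrc*) carries into endosomes, where the divalent metal transporter DMT1 (*Slc11a2*) moves the iron into the cytosol. NRAMP1 (*Slc11a1*) does the same at the phagosome of myeloid cells. Iron that is not used is stored in the shell of ferritin, built of heavy (*Fth1*) and light (*Ftl1*) chains, or leaves through ferroportin (*Slc40a1*), the known iron exporter, which is abundant in macrophages that recycle red cells. Heme is built in a pathway that *Alas1* opens in cells other than red cell precursors, and heme oxygenase 1 (*Hmox1*) breaks it down and frees its iron. When iron is scarce the proteins IRP1 (*Aco1*, an aconitase while it holds an iron-sulfur cluster) and IRP2 (*Ireb2*) bind hairpins called iron-responsive elements. Bound in the 5′ untranslated region (UTR), they block translation of ferritin and ferroportin, and bound in the 3′ UTR they protect the *Tfrc* mRNA from decay. The libraries hold RNA, so translation of ferritin and ferroportin was not measured, and neither was iron.

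RNA was sequenced from bone marrow leukemic cells of adult mice, kept overnight with SCF, GM-CSF, IL-6 and IL-3, infected with a retrovirus and sorted for high GFP. WT-GFP and WT-Cre were MA9 cells of strain C57BL/6 with a wild type Hoxa cluster, infected with the control (GFP) and the Cre virus. Hoxa-flox and Hoxa-del were MA9 cells of strain C57BL/6J whose Hoxa cluster was floxed, infected with the control and the Cre virus, and the labels call the second the deleted state. Each of the 4 groups had 3 libraries, and whether a library is its own culture or animal is not stated in the labels. The p-values therefore cover library-to-library spread alone, which may be technical. All cells carry MA9, and no group is normal marrow. Hoxa genotype, leukemia and strain label differ together between the WT and the floxed groups, so their parts cannot be told apart.

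Estimated depth ran from 3.81 M fragments (WT-Cre 2) to 18.17 M (WT-GFP 3). *Hoxa9*, a gene of the floxed cluster, checked the labels: its mean was 237 ± 20.1 FPKM (SD, n = 3) with the control virus and 106 ± 19.3 with Cre in the floxed cells, against 167 ± 14.04 in WT-GFP and 162 ± 9.80 in WT-Cre. It was thus lower but still at 83.5 to 119 FPKM in the Hoxa-del libraries, and which share of their cells kept the cluster was not tested. The 6 floxed libraries fell into 2 sets by the correlation of their profiles over 13067 tested genes outside the lists used here, with r from 0.9514 to 0.987 within a set and from 0.9112 to 0.9269 between sets. The low *Mki67* set held Hoxa-flox 1, Hoxa-flox 2 and Hoxa-del 2, and the high *Mki67* set held Hoxa-flox 3, Hoxa-del 1 and Hoxa-del 3. *Mki67*, a gene of dividing cells, was at 14.9 to 17.8 FPKM in the first set, at 84.6 to 93.2 in the second and at 65.1 to 78.2 in the WT libraries. Both sets hold libraries of both viruses. They were read from the data, so values by set are a description and carry no test. In bulk RNA, fewer cells of a type and less RNA per cell cannot be told apart.

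Hairpins of a strict form, found in 4 of these genes, were read from the mouse genome. The UTR that holds a hairpin sets the direction of the response to the iron sensors. The 5′ and 3′ UTRs of 44985 coding transcripts of 21745 genes (GENCODE M21, GRCm38) were searched on the transcript strand for a C, 5 stem bases, the 6-base loop CAGTGN and 5 bases that pair with the stem (G-T pairs allowed). Each hit is shown with 4 bases on either side, 5′ to 3′, with the loop in capitals. The 5′ UTR elements lie at chr19:9982734-9982758 (plus strand) in *Fth1*, chr7:45459781-45459805 (minus strand) in *Ftl1* and chr1:45925467-45925491 (minus strand) in *Slc40a1*. The 3′ UTR of *Tfrc* held 4 elements on the plus strand, at chr16:32631221-32631245, chr16:32631600-32631624, chr16:32631665-32631689 and chr16:32631712-32631736.
Fth1, 5′ UTR: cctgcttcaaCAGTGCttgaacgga
Ftl1, 5′ UTR: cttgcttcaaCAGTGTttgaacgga
Slc40a1, 5′ UTR: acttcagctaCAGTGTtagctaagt
Tfrc, 3′ UTR, site 1: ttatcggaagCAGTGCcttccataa
Tfrc, 3′ UTR, site 2: ttatcgggagCAGTGTcttccataa
Tfrc, 3′ UTR, site 3: atatcggagaCAGTGAtctccatat
Tfrc, 3′ UTR, site 4: ttatcgggaaCAGTGTttcccataa

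Such a hairpin was found in the 5′ UTR of 28 of the 21745 genes (0.129%) and in the 3′ UTR of 127 (0.584%). No match was found in the UTRs of *Slc11a1*, *Slc11a2*, *Hmox1*, *Ireb2*, *Aco1* and *Alas1*, which says only that no hairpin of this strict form is there. Stems with a bulge or a mismatch were not searched for. The genes without a match, *Slc11a2* among them, may therefore still hold an iron-responsive element. A match is a description of the sequence, and its use in these cells was not measured.

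By mean level over the 12 libraries, *Fth1* led the list at 1303 FPKM, rank 35 of the 13169 genes tested. *Slc40a1* (267 FPKM, rank 258) and *Alas1* (238 FPKM, rank 289) came next and overlapped each other in range. *Hmox1* averaged 82.5 FPKM and *Tfrc* 35.3. *Ireb2* (12.7 FPKM), *Aco1* (9.93), *Slc11a1* (9.59) and *Slc11a2* (7.65) closed the order, and the ranges of these neighbours overlapped. The highest library held 11.1 times the lowest for *Hmox1*, 7.12 times for *Slc11a1*, 6.63 times for *Tfrc* and 6.43 times for *Fth1*, but 1.78 times for *Ireb2* and 1.56 times for *Aco1*. The thinnest value, *Slc11a1* in Hoxa-del 1, rested on about 39 fragments and the lowest of *Hmox1* on about 161, both in the same library.

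**Figure D1:**
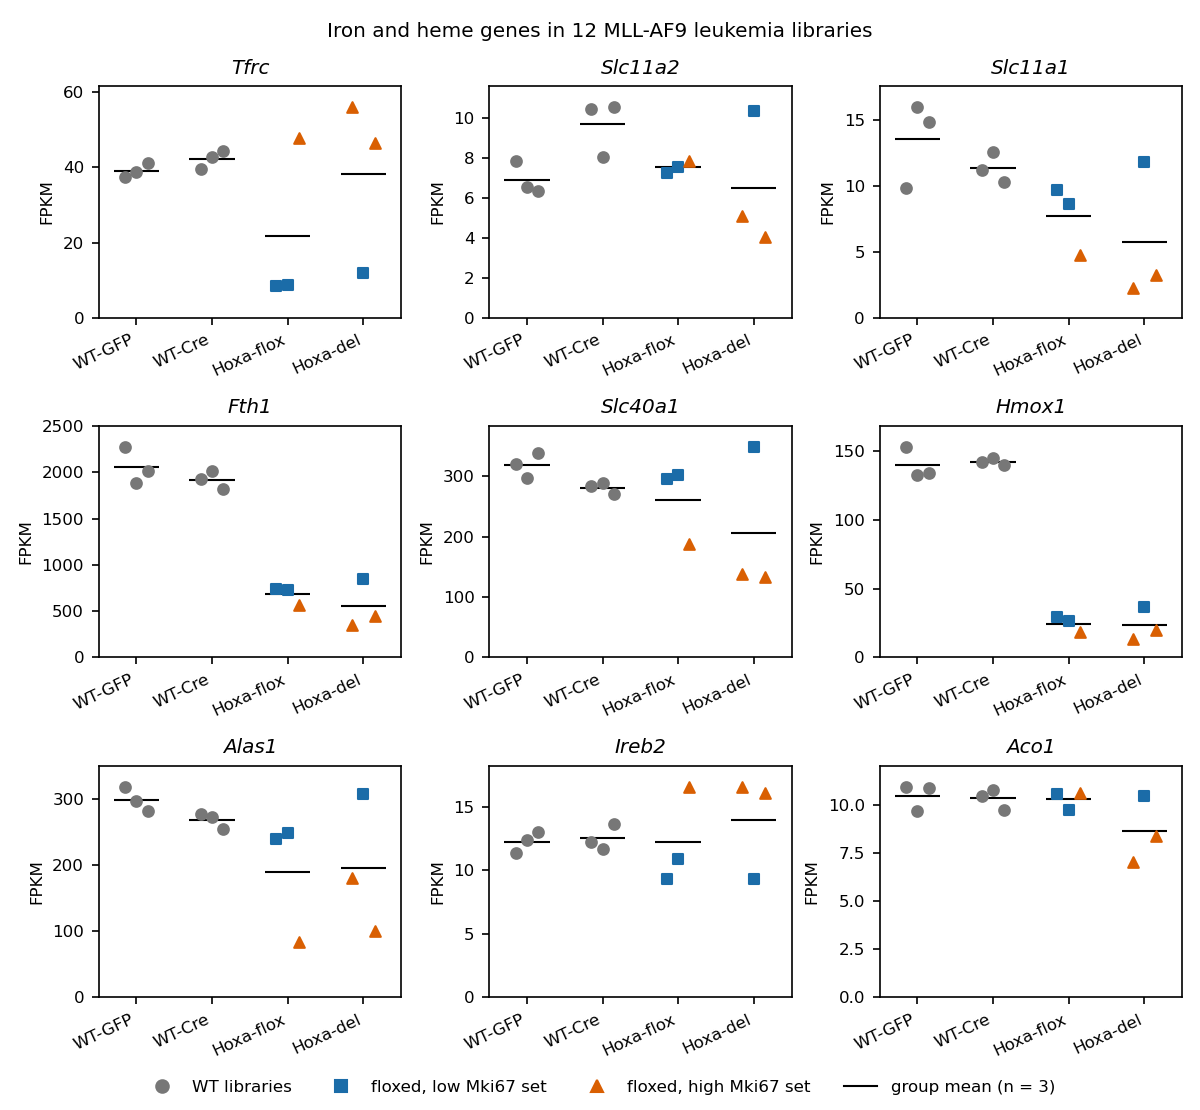
Level in FPKM (vertical axis, from 0) of the 9 measured genes in each library, by group; points are libraries, shaped by library set, and bars are group means of n = 3. Fth1 and Hmox1 are low in all 6 floxed libraries, while Tfrc is low in the 3 libraries of the low Mki67 set and not in the other 3.

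Transferrin receptor mRNA split the floxed libraries by set and not by virus. *Tfrc* (chr16:32608920-32632794, plus strand) was at 37.4, 38.7 and 41.1 FPKM in WT-GFP and at 39.6, 42.7 and 44.4 in WT-Cre. It was at 8.45, 8.81 and 47.8 FPKM in Hoxa-flox 1, 2 and 3 and at 56.1, 11.9 and 46.4 in Hoxa-del 1, 2 and 3. The low *Mki67* set lay below every WT library and the high *Mki67* set above every one, and the mean of the second was 5.16 times that of the first. Within the low set the Hoxa-del library exceeded the mean of the Hoxa-flox libraries by 0.42 on the log2(FPKM + 1) scale, and within the high set the difference was 0.09, both without a test.

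No comparison of *Tfrc* passed. *Tfrc* differed by -1.28 on the log2 scale (SE 0.63, adjusted p = 0.163, limma with Benjamini-Hochberg adjustment over all genes) in Hoxa-flox against WT-GFP, -0.40 (SE 0.63, adjusted p = 0.687) in Hoxa-del against WT-Cre and 0.98 (SE 0.63, adjusted p = 0.739) in Hoxa-del against Hoxa-flox. Hoxa-flox holds 2 libraries of the low set and Hoxa-del holds 1. Without Hoxa-flox 3 the difference from WT-GFP passed (log2 change -2.06, adjusted p = 0.00958, limma). With the set as a term in the fit the change between the floxed groups was 0.26 (adjusted p = 0.378).

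The genes whose profile over the 12 libraries was most like that of *Tfrc*, among 9071 tested genes with a mean of at least 5 FPKM, were *Ranbp2*, a nucleoporin of the cytoplasmic face of the pore (Pearson r = 0.9912), *C330027C09Rik* (0.9902) and *Fam49b* (0.9866). The libraries form clusters, so these r values describe likeness and carry no p. *Ranbp2* was at 14.3 to 19.3 FPKM in the low *Mki67* set, 44.5 to 47.7 in the high set and 34.5 to 43.2 in WT.

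The 2 NRAMP transporters were low everywhere. *Slc11a2* (chr15:100387898-100425072, minus strand), which lets endosomal iron into the cytosol, was at 7.84, 6.52 and 6.34 FPKM in WT-GFP and at 10.4, 8.04 and 10.5 in WT-Cre. The Cre libraries lay above the control libraries, at a log2 change of 0.43 (SE 0.25, adjusted p = 1, limma). In Hoxa-flox it was at 7.24, 7.52 and 7.85 FPKM and in Hoxa-del at 5.09, 10.4 and 4.05. The Hoxa-del library that stood high was Hoxa-del 2, and the 2 library sets overlapped. *Slc11a2* differed by 0.12 on the log2 scale between Hoxa-flox and WT-GFP (SE 0.25, adjusted p = 0.778, limma), by -0.59 between Hoxa-del and WT-Cre (SE 0.25, adjusted p = 0.109) and by -0.28 between Hoxa-del and Hoxa-flox (SE 0.25, adjusted p = 0.762).

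*Slc11a1* (chr1:74375195-74386062, plus strand), the phagosomal transporter, was at 9.84, 16.0 and 14.8 FPKM in WT-GFP and at 11.2, 12.5 and 10.3 in WT-Cre. It was at 9.70, 8.63 and 4.72 FPKM in Hoxa-flox and at 2.24, 11.8 and 3.26 in Hoxa-del. The high *Mki67* set lay below all WT libraries, while the low set overlapped them with a mean 2.95 times that of the high set. Against WT-GFP the Hoxa-flox libraries were all lower (log2 change -0.77, SE 0.43, adjusted p = 0.222, limma), and against WT-Cre the Hoxa-del libraries overlapped (log2 change -1.13, SE 0.43, adjusted p = 0.0763). With the replicate number as a block the second passed (adjusted p = 0.0491, limma). Between Hoxa-del and Hoxa-flox the difference of *Slc11a1* was -0.58 (SE 0.43, adjusted p = 0.747). Its nearest profiles were *Ap1m1* (r = 0.9639) and *Vps33a* (0.9626), which serve vesicle traffic, and *Cfp*, the complement factor properdin (0.956).

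Ferritin heavy chain mRNA was lower in every floxed library than in every WT library. *Fth1* (chr19:9980598-9985098, plus strand) was at 2273, 1885 and 2016 FPKM in WT-GFP and at 1928, 2015 and 1821 in WT-Cre. It was at 744, 734 and 566 FPKM in Hoxa-flox and at 354, 849 and 452 in Hoxa-del. It fell to 33.1% of the WT-GFP mean in Hoxa-flox (log2 change -1.60, SE 0.29, adjusted p = 0.00198, limma) and to 28.7% of the WT-Cre mean in Hoxa-del (log2 change -1.90, SE 0.29, adjusted p = 0.000691). Both calls held in every alternative run, which did not include the library set as a term.

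Within the floxed cells *Fth1* was lower again in the high *Mki67* set, whose 3 libraries (354 to 566 FPKM) lay below the low set (734 to 849). The low set's mean was 1.70 times that of the high set. The change of *Fth1* from Hoxa-flox to Hoxa-del was -0.39 (SE 0.29, adjusted p = 0.746, limma), and within the sets the difference had opposite signs (0.20 in the low set and -0.50 in the high set, untested). Without Hoxa-del 2 the change was -0.76 and passed (adjusted p = 0.0471). *Fth1* has near-identical processed pseudogenes, so its level is uncertain where the counting could split reads. The row of 1 such copy, *Fth-ps2*, looked up after values were seen, averaged 0.965 to 4.09 FPKM in the 4 groups.

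*Tfrc* and *Fth1* went opposite ways between the 2 floxed sets, but did not move as mirror images across all 12 libraries. For every 100 FPKM of *Fth1* the WT libraries held 1.65 to 2.44 FPKM of *Tfrc*, the low *Mki67* set 1.14 to 1.40 and the high set 8.44 to 15.9. Set against the WT level of each gene, the low set was thus low in both mRNAs, and the high set was low in *Fth1* but above WT in *Tfrc*. The part of the iron sensors in these levels was not tested.

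**Figure D2:**
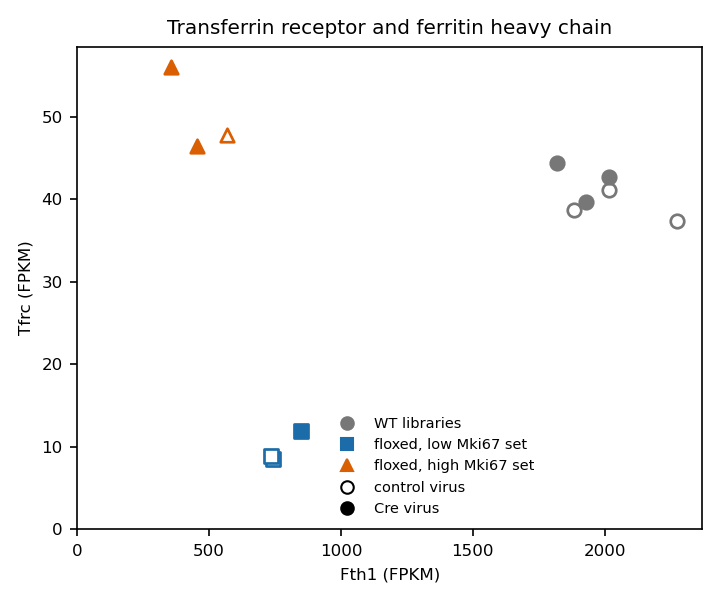
Tfrc (vertical axis, FPKM) against Fth1 (horizontal axis, FPKM); each point is 1 library, shaped by library set, open for the control virus and filled for Cre. The low Mki67 set sits at 734 to 849 FPKM of Fth1 with 8.45 to 11.9 of Tfrc, the high set at 354 to 566 with 46.4 to 56.1, and the WT libraries at 1821 to 2273 with 37.4 to 44.4.

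Ferroportin mRNA was abundant in these leukemic cells and overlapped the WT level in 1 of the 2 floxed sets. *Slc40a1* (chr1:45908068-45926523, minus strand) was at 320, 297 and 338 FPKM in WT-GFP and at 284, 289 and 270 in WT-Cre. It was at 295, 301 and 187 FPKM in Hoxa-flox and at 138, 348 and 133 in Hoxa-del. The low *Mki67* set (295 to 348 FPKM) overlapped the WT libraries, and the high set (133 to 187) lay below all of them. The low set's mean was 2.06 times that of the high set.

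No comparison of *Slc40a1* passed. It differed by -0.31 on the log2 scale (SE 0.33, adjusted p = 0.526, limma) in Hoxa-flox against WT-GFP, -0.59 (SE 0.33, adjusted p = 0.208) in Hoxa-del against WT-Cre and -0.46 (SE 0.33, adjusted p = 0.745) in Hoxa-del against Hoxa-flox. The symbol has 2 rows, and the row with the higher mean is the one described. The other row, far lower, gave another picture. It was at 13.7, 14.4 and 14.8 FPKM in WT-GFP, 14.3, 16.6 and 14.4 in WT-Cre, 5.33, 6.33 and 8.37 in Hoxa-flox, and 20.2, 6.74 and 12.6 in Hoxa-del. There the high *Mki67* set lay above the low set, and Hoxa-flox fell against WT-GFP (log2 change -1.02, adjusted p = 0.0250, limma). Which transcripts each row counts is not given in the sources used here.

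The ratio of exporter to importer mRNA separated the 3 kinds of library widely. The main row of *Slc40a1* held 6.09 to 8.56 times the FPKM of *Tfrc* in the WT libraries, 29.3 to 34.9 times in the low *Mki67* set and 2.47 to 3.92 times in the high set. Closest in profile to *Slc40a1* were *Laptm5*, a lysosomal membrane protein of blood cells (r = 0.9908), *Abhd12* (0.9882) and *Capn1*, a calcium-dependent protease (0.9855). *Laptm5* was at 516 to 620 FPKM in the low set, 270 to 337 in the high set and 482 to 576 in WT.

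Heme oxygenase 1 had the lowest adjusted p of the list in both comparisons with WT cells. *Hmox1* (chr8:75093621-75100589, plus strand) was at 153, 133 and 134 FPKM in WT-GFP and at 142, 144 and 140 in WT-Cre. It was at 29.2, 26.4 and 18.2 FPKM in Hoxa-flox and at 13.8, 36.5 and 19.8 in Hoxa-del. It fell in Hoxa-flox against WT-GFP (log2 change -2.48, SE 0.28, adjusted p = 8.1e-05, limma), where the WT mean was 5.68 times the floxed mean. It also fell in Hoxa-del against WT-Cre (log2 change -2.67, SE 0.28, adjusted p = 5.09e-05), by a factor of 6.09. All 6 floxed libraries lay below all 6 WT libraries, and both calls held in every alternative run, again without the library set as a term.

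As with *Fth1*, the high *Mki67* set (13.8 to 19.8 FPKM) lay below the low set (26.4 to 36.5) for *Hmox1*, and the low set's mean was 1.78 times the other. From Hoxa-flox to Hoxa-del *Hmox1* differed by -0.16 on the log2 scale (SE 0.28, adjusted p = 0.864, limma), and 0.12 with the set as a term. The nearest profiles were *Trem2*, a receptor of macrophages and microglia (r = 0.9963), *Pcyt1a*, an enzyme of phosphatidylcholine synthesis (0.9955), and *S100a3* (0.9954). *Trem2* was at 15.8 to 22.1 FPKM in WT, 0.564 to 1.87 in the low set and at most 0.152 in the high set.

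Some macrophage markers fell with *Hmox1* and *Fth1* between the genotypes, and others did not. Of 9 tested macrophage genes, 6 fell and 0 rose in Hoxa-flox against WT-GFP, where 13.5% of all tested genes fell (median log2 change -2.36, against 0.00 over all genes). In Hoxa-del against WT-Cre 5 of the 9 fell and 0 rose, where 14.2% of all tested genes fell. The complement genes *C1qa*, *C1qb* and *C1qc* had group means of 25.02 to 50.9 FPKM in WT and of at most 0.154 in the floxed groups, and were listed at 0 in every library of the high *Mki67* set. The 14 macrophage markers summed to 372 to 414 FPKM in WT-GFP, 395 to 412 in WT-Cre, 276 to 284 in the low *Mki67* set and 81.0 to 120 in the high set. Other macrophage markers had another order: *Cd68* was at 103 to 125 FPKM in WT-GFP, 121 to 129 in the low set and 22.7 to 24.4 in the high set, and *Adgre1* at 41.1 to 42.2, 95.3 to 99.4 and 29.2 to 42.9. The part of these cells or genes in the values of *Hmox1*, *Fth1*, *Slc40a1*, *Slc11a1* and *Alas1* was not tested.

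The erythroid, B and T cell markers that had a row were near 0 in all libraries. The 5 erythroid markers with a row summed to 0.663 to 1.93 FPKM over the 12 libraries, led by *Klf1* and *Gata1*. The other 7 of the 12 listed, *Hbb-bs* and *Hbb-bt* among them, had no row. *Alas2*, the red cell form in the heme synthesis list, was at 1.34 to 4.64 FPKM in WT-Cre and at most 2.07 in the other groups. The 3 B cell markers with a row summed to 0.648 to 2.73 FPKM, led by *Cd79b* and *Cd79a*, and the 2 T cell markers, *Cd3d* and *Cd3e*, to at most 0.374. Some myeloid genes were abundant. The 9 myeloid leukemic markers summed to 3088 to 5924 FPKM, led by the granule proteases *Elane* at 841 to 2603 and *Prtn3* at 1005 to 1817. The sum hides low members, named after their values were seen. *Cd34* ran from 1.93 to 2.16 FPKM across the WT-GFP libraries, against 64.8 to 75.9 in Hoxa-flox. For *Kit* these ranges were 4.99 to 5.44 and 32.0 to 38.4. *Mpo* spanned 3.80 to 12.5 FPKM in the low *Mki67* set and 31.1 to 407 in the high set. Of the 9 markers, 4 rose and 2 fell in Hoxa-flox against WT-GFP, beside 13.3% and 13.5% of all tested genes. The risers include *Hoxa9*, a gene of the floxed cluster.

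*Alas1* (chr9:106233455-106248654, minus strand), the first enzyme of heme synthesis, was at 318, 296 and 281 FPKM in WT-GFP and at 277, 272 and 255 in WT-Cre. It was at 239, 248 and 83.1 FPKM in Hoxa-flox and at 180, 306 and 101 in Hoxa-del. Every Hoxa-flox library lay below every WT-GFP library, but Hoxa-flox 3 stood far below the other 2, and the change of -0.80 (SE 0.43, adjusted p = 0.198, limma) did not pass. The change was -0.59 (SE 0.43, adjusted p = 0.345) in Hoxa-del against WT-Cre and 0.06 (SE 0.43, adjusted p = 0.970) in Hoxa-del against Hoxa-flox. The low *Mki67* set (239 to 306 FPKM) overlapped the WT libraries and the high set (83.1 to 180) lay below them, at means that differed by a factor of 2.18.

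The balance of the heme enzyme mRNAs lay apart between the genotypes. *Alas1* held 2.14 ± 0.0846 times the FPKM of *Hmox1* in WT-GFP and 1.88 ± 0.0641 times in WT-Cre, against 7.38 ± 2.50 times in Hoxa-flox and 8.85 ± 4.01 times in Hoxa-del (SD, n = 3).

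The iron sensors had the narrowest ranges of the list. *Ireb2* (chr9:54863789-54912530, plus strand), which encodes IRP2, was at 11.4, 12.4 and 12.98 FPKM in WT-GFP and at 12.2, 11.7 and 13.6 in WT-Cre. It was at 9.32, 10.9 and 16.6 FPKM in Hoxa-flox and at 16.5, 9.30 and 16.0 in Hoxa-del. The order of the sets was that of *Tfrc*: the low *Mki67* set (9.30 to 10.9 FPKM) lay below every WT library, and the high set (16.0 to 16.6) above every one, with means that differed by a factor of 1.66. The log2 changes between groups were -0.03 (SE 0.23, adjusted p = 0.933, limma) in Hoxa-flox against WT-GFP, 0.11 (SE 0.23, adjusted p = 0.778) in Hoxa-del against WT-Cre and 0.17 (SE 0.23, adjusted p = 0.817) in Hoxa-del against Hoxa-flox.

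*Aco1* (chr4:40143081-40198338, plus strand), which encodes IRP1, was at 10.9, 9.66 and 10.9 FPKM in WT-GFP, 10.5, 10.8 and 9.74 in WT-Cre, 10.6, 9.74 and 10.6 in Hoxa-flox, and 7.014, 10.4 and 8.40 in Hoxa-del. The 2 lowest values were those of Hoxa-del 1 and Hoxa-del 3, and the sets overlapped. Its log2 change was -0.02 (SE 0.14, adjusted p = 0.932, limma) in Hoxa-flox against WT-GFP and -0.25 in both Hoxa-del against WT-Cre (SE 0.14, adjusted p = 0.219) and Hoxa-del against Hoxa-flox (SE 0.14, adjusted p = 0.732). *Ireb2* held 1.56 to 2.35 times the FPKM of *Aco1* in the high *Mki67* set, against 0.881 to 1.117 times in the low set and 1.04 to 1.40 times in WT.

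**Figure D3:**
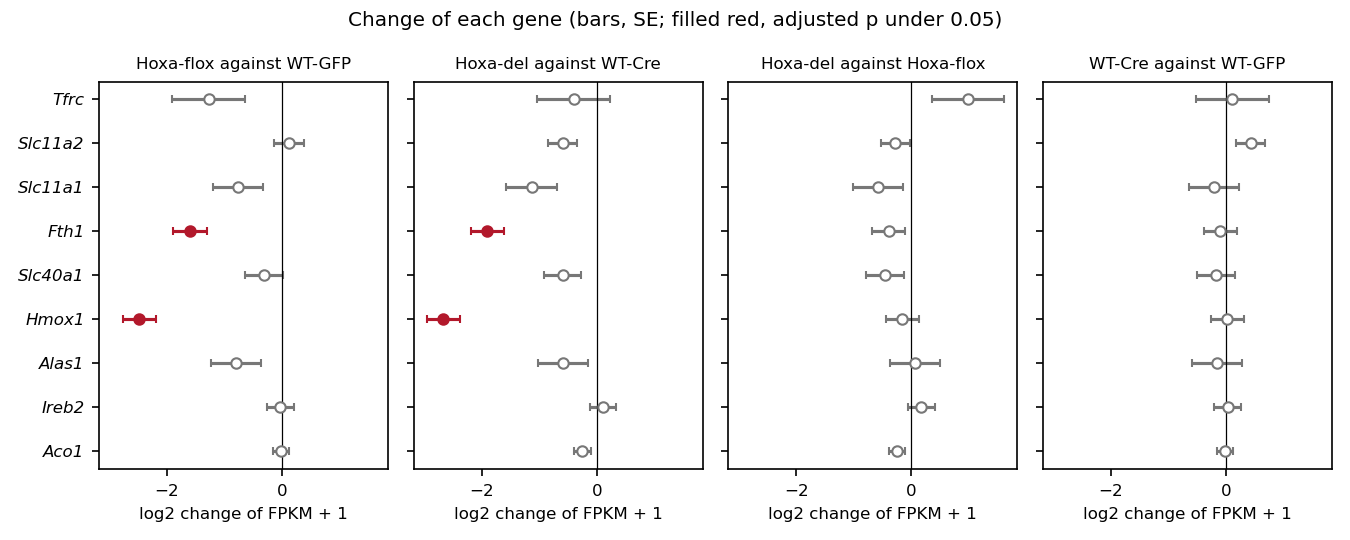
Change of each gene in 4 comparisons (horizontal axis, log2 of FPKM + 1; bars are 1 SE), filled red where the adjusted p was under 0.05. Fth1 and Hmox1 are the filled points, at -1.60 and -2.48 in Hoxa-flox against WT-GFP and at -1.90 and -2.67 in Hoxa-del against WT-Cre.

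Over the list, 2 of 9 genes fell and 0 rose in Hoxa-flox against WT-GFP, where 13.5% of all tested genes were called lower and 26.8% in either direction. The same count, 2 of 9 lower and 0 higher, was found in Hoxa-del against WT-Cre, beside 14.2% lower and 27.2% either way. With 9 genes, counts this near the shares of all genes are not a result about the list. The median log2 change of the 9 genes was -0.77 and -0.59 in the 2 comparisons, against 0.00 over all genes in each, and 8 of 9 were below 0 in each. Those 8 include *Aco1* (-0.02) and *Ireb2* (-0.03) in the first comparison, both within 1 SE of 0. The share of all genes below 0 was not counted. Groups did not overlap for 4 of 9 genes in the first, against 47.2% of all genes, and for 2 of 9 in the second, against 41.3%.

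Hoxa-del 2, the only Hoxa-del library of the low *Mki67* set, decided the second count. Without it 6 of 9 genes fell against WT-Cre: *Slc11a1* (log2 change -1.73, adjusted p = 0.00133, limma), *Slc40a1* (-1.05, adjusted p = 0.00253), *Slc11a2* (-0.93, adjusted p = 0.00157) and *Aco1* (-0.38, adjusted p = 0.0387) joined *Fth1* and *Hmox1*. In that fit 2260 of 13172 genes were called lower and 3990 either way. The 2 Hoxa-del libraries then left are both of the high set.

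Cre in the floxed cells, which left *Hoxa9* at 106 of 237 FPKM, gave no call in the list. Between the floxed groups, 0 of 9 genes passed limma's test and 0 had an unadjusted p under 0.05, beside 0.0304% of all genes called (4 genes, with 826 at an unadjusted p under 0.05) and 0.0228% called lower. All 9 genes overlapped between the groups, against 6.39% of all genes that did not. Within the sets the Hoxa-del minus Hoxa-flox difference had opposite signs for 6 of 9 genes, from 1 library against 2. The share of all genes with opposite signs was not counted, so this count is not a result about the list. In the low set the difference rests on Hoxa-del 2, whose values summed to 1211907 FPKM, the highest of the 12 libraries. Without Hoxa-del 2, 4 of 9 genes passed as lower: *Fth1* (-0.76), *Slc11a1* (log2 change -1.18, adjusted p = 0.0460), *Slc40a1* (-0.91, adjusted p = 0.0436) and *Slc11a2* (-0.62, adjusted p = 0.0487). In that fit 465 of 13172 genes were called lower and 790 either way.

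The Cre virus alone gave no call either. In WT-Cre against WT-GFP 0 of 9 genes passed limma's test, 0 had an unadjusted p under 0.05 and 0.0152% of all genes were called (2 genes, with 312 unadjusted). Groups did not overlap for 3 of 9 genes, *Slc11a2* (higher) and *Slc40a1* and *Alas1* (lower), against 25.7% of all genes. The difference between the 2 Cre effects (interaction) passed for 0 of 9 genes (adjusted p = 0.9997 for each in limma, 0 unadjusted), beside 0.00759% of all genes (1 gene, with 324 unadjusted).

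The library sets did not overlap for 7 of 9 genes (all but *Slc11a2* and *Aco1*), against 54.8% of all tested genes. The means of the sets differed by more than 1 on the log2(FPKM + 1) scale for 4 of 9 genes (*Tfrc*, *Slc11a1*, *Alas1* and *Slc40a1*), against 14.03% of all genes. *Tfrc* (2.26) and *Ireb2* (0.68) were higher in the high *Mki67* set, and *Slc11a1* (-1.35), *Alas1* (-1.19), *Slc40a1* (-1.05), *Hmox1* (-0.80) and *Fth1* (-0.78) were lower. All 5 proliferation markers were higher in that set, where they summed to 276 to 345 FPKM against 83.4 to 104 in the low set and 178 to 205 in WT. *Mki67*, after which the set is named, is among the 5, and the share of all genes higher in that set was not counted. *Top2a*, the topoisomerase of dividing cells, was at 87.8 to 110 FPKM in the high set, 29.3 to 37.8 in the low set and 43.8 to 53.0 in WT. The part of cell division in these values was not tested.

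**Figure D4:**
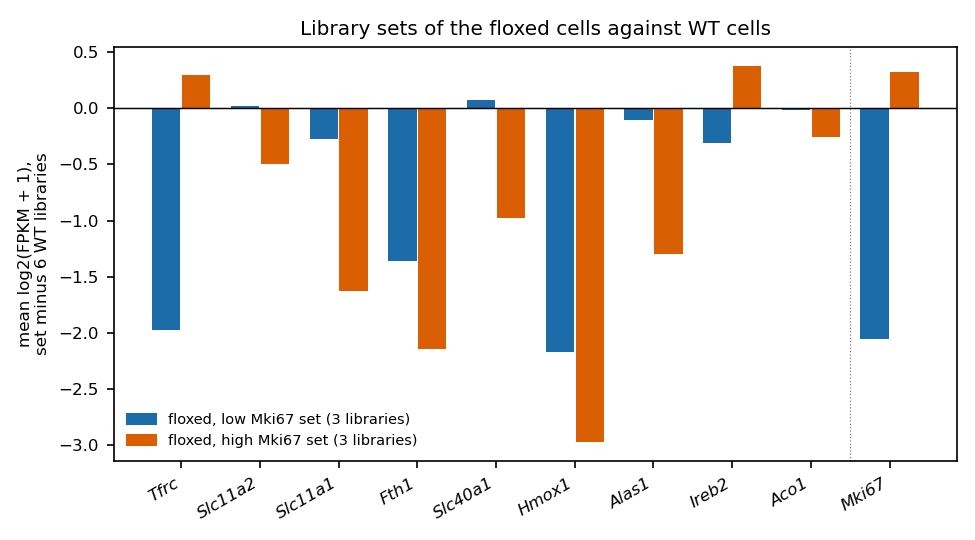
Mean log2(FPKM + 1) of each floxed library set minus the mean of the 6 WT libraries (vertical axis), for 9 genes and, right of the dotted line, Mki67. Fth1 and Hmox1 are below WT in both sets; Tfrc, Ireb2 and Mki67 are below WT in the low Mki67 set and above it in the high set.

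Other genes of the pathways were read from 7 lists. In all 7, 0 genes passed in Hoxa-del against Hoxa-flox, in WT-Cre against WT-GFP or in the interaction, and the values below are from Hoxa-flox against WT-GFP unless stated. In that comparison 13.3% of all tested genes rose and 13.5% fell, and with 1 to 19 tested genes a list, counts near those shares are not a result about a list. Among genes of the transferrin cycle and iron import, 8 of 13 were tested, 2 rose and 2 fell (median log2 change -0.22), beside 13.3% and 13.5% of all genes. *Tfr2*, the second transferrin receptor, rose from 0.763 ± 0.210 to 6.38 ± 0.898 FPKM (log2 change 2.07, SE 0.18, adjusted p = 8.7e-06, limma). *Slc39a14* (ZIP14), an importer of iron that is not bound to transferrin, rose from 3.38 ± 1.15 to 8.59 ± 1.25 FPKM (log2 change 1.16, adjusted p = 0.00182). *Lcn2*, which binds iron-loaded siderophores, fell from 222 ± 19.5 to 67.7 ± 46.3 FPKM (log2 change -2.10, adjusted p = 0.0390), and its lowest floxed library was at 14.3. *Slc22a17*, reported as a receptor of lipocalin 2, was the other gene that fell (log2 change -1.46, adjusted p = 0.00268). Thus *Tfr2* was higher in all floxed libraries while *Tfrc* was not.

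Of the genes of iron storage, chaperones and mitochondrial import, 6 of 9 were tested. *Slc25a28* (mitoferrin 2), which carries iron into mitochondria, was the only one to rise, from 5.42 ± 1.13 to 10.7 ± 1.27 FPKM (log2 change 0.88, adjusted p = 0.00203, limma), and 0 fell. Of the export and hepcidin genes only *Hfe*, a partner of the transferrin receptors, was tested. It fell from 7.55 ± 0.305 to 1.02 ± 0.311 FPKM (log2 change -2.09, adjusted p = 2.43e-05). Another 7 genes of that list, among them hepcidin (*Hamp*), were under 1 FPKM in every library.

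Of the heme synthesis genes 12 of 13 were tested, 1 rose and 0 fell (median log2 change -0.10), no more than the 13.3% and 13.5% of all genes. The riser was *Tspo*, a protein of the outer mitochondrial membrane that binds porphyrins, which went from 139 ± 9.95 to 249 ± 39.2 FPKM (log2 change 0.83, adjusted p = 0.0170, limma). By library set, 5 of the 12 were lower in the high *Mki67* set without overlap (*Tspo*, *Uros*, *Urod*, *Ppox* and *Abcb6*) and 1, *Fech*, was higher, so 6 of 12 did not overlap, near the 54.8% of all genes.

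Of the heme breakdown and transport genes 9 of 14 were tested, 1 rose and 2 fell, beside 13.3% and 13.5% of all genes. *Hmox2*, the constitutive heme oxygenase, fell with *Hmox1*, from 103 ± 4.04 to 40.9 ± 2.62 FPKM (log2 change -1.31, SE 0.19, adjusted p = 0.000384, limma), and in Hoxa-del from 93.3 ± 5.31 to 32.7 ± 10.2 against WT-Cre (log2 change -1.53, adjusted p = 0.000134). *Lrp1*, the receptor that takes up heme bound to hemopexin, fell from 41.6 ± 3.73 to 7.42 ± 2.66 FPKM (log2 change -2.39, adjusted p = 2.15e-05). *Pgrmc1*, a heme-binding membrane protein, rose from 80.3 ± 4.94 to 180 ± 8.77 FPKM (log2 change 1.15, adjusted p = 0.000284). The sets did not overlap for 6 of the 9 tested genes, against 54.8% of all genes, and all 6 were lower in the high *Mki67* set.

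Iron-sulfur cluster genes, 19 of 20 tested, gave 4 that rose and 1 that fell (median log2 change 0.32), and these 5 of 19 are close to the 26.8% of all genes called. *Mms19*, which targets clusters to DNA enzymes, rose from 11.5 ± 1.15 to 19.9 ± 0.652 FPKM (log2 change 0.75, adjusted p = 0.00257, limma). *Ciao1*, of the same complex, rose from 15.9 ± 1.02 to 26 ± 5.85 FPKM (log2 change 0.65, adjusted p = 0.0230), *Isca1* from 9.28 ± 0.725 to 14.7 ± 1.32 (log2 change 0.61, adjusted p = 0.00375), and *Iba57* was the other riser (log2 change 0.65, adjusted p = 0.0366). *Iscu*, the scaffold on which clusters form, fell (log2 change -0.47, adjusted p = 0.0200).

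*Hmox1* is a classic target of the activator NRF2 (*Nfe2l2*) and the heme-sensing repressor BACH1, and of 14 tested genes of that list 6 fell and 1 rose (median log2 change -0.33), beside 13.5% and 13.3% of all genes. *Nfe2l2* fell from 35.7 ± 0.707 to 18.7 ± 1.24 FPKM (log2 change -0.90, SE 0.10, adjusted p = 6.55e-05, limma), and it was at 18.3 to 19.4 in Hoxa-del against 35.7 to 36.2 in WT-Cre. The targets *Srxn1* (22.1 ± 5.25 to 10.8 ± 1.47 FPKM, log2 change -0.95, adjusted p = 0.0138) and *Gclc* (23.4 ± 2.02 to 13.1 ± 1.28 FPKM, log2 change -0.79, adjusted p = 0.0107) fell. *Bach1*, named after its values were seen, fell as well, from 37.6 ± 1.13 to 24.3 ± 0.613 FPKM (log2 change -0.61, adjusted p = 0.000838). The gene that rose was *Me1*, malic enzyme, also listed as a target, from 0.0608 ± 0.0183 to 3.98 ± 1.57 FPKM (log2 change 2.18, adjusted p = 0.000571). Listed targets that were not called, named after their values were seen, include *Gclm* (log2 change -0.13), *Txnrd1* (-0.24) and *Prdx1* (0.08). The part of NRF2 and BACH1 in the values of *Hmox1* was not tested.

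**Figure D5:**
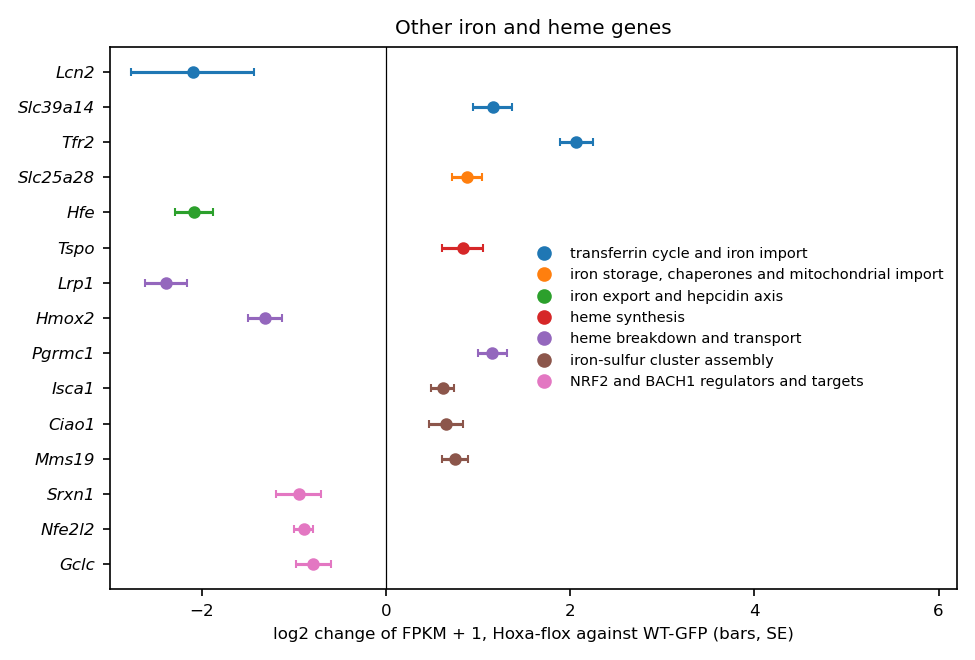
Change of 15 other iron and heme genes in Hoxa-flox against WT-GFP (horizontal axis, log2 of FPKM + 1; bars are 1 SE), coloured by list and shown because each passed the test. Tfr2 stands at 2.07, and Lrp1, Lcn2 and Hfe stand at -2.39, -2.10 and -2.09.

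Of these 15 genes, 12 also passed in Hoxa-del against WT-Cre, where the counts were 2 higher and 3 lower in the transferrin list, 1 and 1 in the storage list, 0 and 1 in the export list, 1 and 1 in heme synthesis, 1 and 3 in heme breakdown, 3 and 1 in the iron-sulfur list and 1 and 4 in the NRF2 and BACH1 list. Of all tested genes 13% were higher and 14.2% lower there. The 15 were picked for passing in Hoxa-flox against WT-GFP, and both comparisons set floxed against WT cells. Passing in both is therefore no independent support, and the share of all genes that did so was not counted. The exceptions among the 15 were *Ciao1* (log2 change 0.50, adjusted p = 0.0663, limma), *Isca1* (0.27, adjusted p = 0.138) and *Gclc* (-0.25, adjusted p = 0.366). Genes called in that comparison alone, named after their values were seen, were *Snx3* (-0.51), *Abcb6* (-0.72) and *Blvra* (-0.63), which fell, and *Hspa9* (0.77), which rose. The gene called lower in the storage list was *Ftl2*, a ferritin light chain copy. Its values were 3.36, 76.8 and 1.91 FPKM in WT-Cre and at most 1.05 in every floxed library, and the value that stands apart is that of WT-Cre 2, the library of lowest depth.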

How the data were processed

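The deposited table has 28042 rows and 12 library columns, all mapped to a sample. Per the submitters' processing notes, the builds were mm10 and GRCm38 and the tools Cuffdiff 2.2.2.20150701, Cufflinks and STAR, with no role or order named. The authors' values carry no stated unit and were taken as FPKM, the unit Cufflinks gives. Scaling between libraries, annotation and strand setting: not given in the sources used here. Libraries were stranded and depleted of ribosomal RNA, per the labels' protocols. Of several rows under 1 symbol (1855 symbols, 4634 rows), the one with the largest mean was taken. Whether rows hold merged loci was not tested.

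No count model was used. The fit was limma-trend (limma 3.58.1 in R 4.3.3) over all 12 libraries and 4 groups together, for symbols averaging 1 FPKM or more. Values entered as log2(FPKM + 1), a scale that understates changes of low genes. P-values were adjusted by Benjamini-Hochberg, and a gene was called under 0.05. Depth was estimated from the value of 1 fragment, the lowest step of FPKM times length in genes with 1 annotated transcript. Fragments behind a value used the longest coding transcript. Library sets came from average linkage on 1 minus Pearson r. Positions and UTRs are those of GENCODE M21. Tables used Python 3.11.15, pandas 2.3.3 and numpy 2.4.6.

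The genes and lists were chosen with earlier results of these data known. Genes named from a list were the 3 with the largest change among those past the threshold in Hoxa-flox against WT-GFP whose higher group averaged 5 FPKM or more, from marker lists the 2 with the highest mean, and for 4 genes the 3 nearest profiles. Where a list had 5 or fewer calls the others were named too, after their values were seen. Alternatives were a pseudocount of 0.1, no filter, upper-quartile scaling, array weights and a replicate block. Others were a fit of just the pair of groups compared, summed repeated rows and each library left out. The library set as a term was run for the comparisons within a genotype and the interaction, not for those between genotypes. The other row of *Slc40a1* was added after seeing the data.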

Additional observations from a re-analysis of the deposited data

How the results depend on the processing

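*Fth1* and *Hmox1* passed in Hoxa-flox against WT-GFP and in Hoxa-del against WT-Cre under every alternative run: *Fth1* at log2 changes of -1.67 to -1.45 (adjusted p up to 0.0110) and -2.26 to -1.63 (up to 0.0141), *Hmox1* at -2.62 to -2.29 (up to 0.000773) and -3.03 to -2.36 (up to 0.00237). The library set as a term was not among the alternatives run for these 2 comparisons. The spread is pooled over groups that vary unequally. Depth limits *Slc11a1* most, at about 39 fragments in its lowest library, and then *Slc11a2*, at about 135. All genes called in the fit as described numbered 3525 in Hoxa-flox against WT-GFP, 3580 in Hoxa-del against WT-Cre, 4 in Hoxa-del against Hoxa-flox, 2 in WT-Cre against WT-GFP and 1 in the interaction. Array weights, whose estimate stopped before convergence, called 9186 of all genes in the first, 4813 in the second, 5173 in the third, 18 in the fourth and 3452 in the interaction, and of the iron and heme genes 5, 6 and 8 in the first 3 comparisons and 5 in the interaction. Under them *Alas1* was at -0.77 (adjusted p = 0.0241) in Hoxa-del against Hoxa-flox and *Tfrc* at 0.13 in Hoxa-del against WT-Cre, both reversed. Without a filter on low values 7, 5 and 4 of all genes were called in Hoxa-del against Hoxa-flox, in WT-Cre against WT-GFP and for the interaction. With only the 2 groups compared, 1 was called in the first of these, 5 in the second and 2377 in Hoxa-del against WT-Cre. With the library set as a term *Hmox1* (0.12) and *Ireb2* (-0.064) changed sign in Hoxa-del against Hoxa-flox, as did *Slc40a1* with its other row (0.79). The cause was not tested.

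With each library left out, all genes called ran from 2 to 790 in Hoxa-del against Hoxa-flox. The range was 0 to 7 in WT-Cre against WT-GFP and 1 to 5 in the interaction. It was 2395 to 4193 in Hoxa-flox against WT-GFP and 2539 to 3990 in Hoxa-del against WT-Cre. Iron and heme genes called ran from 0 to 4 in Hoxa-del against Hoxa-flox. They ran from 2 to 3 in Hoxa-flox against WT-GFP and from 2 to 6 in Hoxa-del against WT-Cre. Log2 changes crossed 0 for *Aco1* (-0.074 to 0.0155) and *Ireb2* (-0.26 to 0.13) in Hoxa-flox against WT-GFP, for *Ireb2* (-0.028 to 0.35) and *Tfrc* (-0.81 to 0.27) in Hoxa-del against WT-Cre, and for *Alas1* (-0.46 to 0.46) and *Hmox1* (-0.52 to 0.15) in Hoxa-del against Hoxa-flox.

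Same-numbered libraries of compared groups correlated at r from -0.301 to 0.721, and 2 or 3 of 6 libraries per comparison correlated best with their own number. In the floxed groups the libraries numbered 2 share a library set, as do those numbered 3. The check therefore cannot show whether same-numbered libraries share a culture or animal, which the labels do not state. The fit as described did not pair them. The replicate block called 3 iron and heme genes in Hoxa-del against WT-Cre, with *Slc11a1* added, beside 3635 of all genes. It called 0 of all genes in WT-Cre against WT-GFP.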
